A study of Homo sapiens with 28 samples.

Results

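The comparison described here set p300 knockdown directly against CBP knockdown in HOXB13-depleted LNCaP cells, an androgen-responsive human prostate cancer cell line. Its members were chosen by their treatment labels alone: 2 libraries labelled shHOXB13+shp300 and 2 labelled shHOXB13+shCBP, that is 4 of the 28 libraries of the series and of the 16 in its knockdown arm. All genes with a value were considered, whether or not they responded to shHOXB13. All 4 cultures carried the same lentiviral hairpin against HOXB13 (pGIPZ vector, 1 clone) and 1 further hairpin in pLKO.1, against p300 in the shHOXB13+shp300 cells and against CBP in the shHOXB13+shCBP cells. Messenger RNA was sequenced from biological duplicates. With 1 hairpin for each gene, loss of the named protein cannot be told apart from any other effect of that hairpin. The remaining groups of the knockdown arm, also of 2 libraries each, were shHOXB13 alone, shHOXB13+shp300/CBP (both hairpins), and the same 4 combinations on a control vector (shCtrl+shp300, shCtrl+shCBP, shCtrl+shp300/CBP and shCtrl).

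p300 and CBP, encoded by EP300 and CREBBP, are paralogous lysine acetyltransferases. Both place acetyl groups on histone H3 at enhancers, bind many of the same transcription factors through related domains, and act as coactivators of nuclear receptors. Both also serve as coactivators of the interferon-activated factors that switch on antiviral genes. The comparison asks in which transcripts the loss of one paralog differed from the loss of the other once HOXB13 was depleted.

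Mapped reads numbered 8165560 and 9046906 in the shHOXB13+shp300 libraries and 7458934 and 7960417 in the shHOXB13+shCBP libraries, at the low end of the range of 7458934 to 16338528 over the knockdown arm. Reads assigned to genes were 65.4% and 58.7% of the mapped reads with shp300 and 55.9% and 63.2% with shCBP. Both arms thus held 1 library with a lower share. Luminal prostate markers were present in all 4 libraries, KLK3 at 882 to 2437 FPKM (fragments per kilobase, scaled to the mapped reads of the library), KRT8 at 150 to 205 FPKM and FOLH1 at 68.6 to 124 FPKM, while PTPRC, CD3E, DES, DCN and COL1A2, which mark immune cells, muscle and fibroblasts, were listed at 0 in all 4. Other members of those marker lists were present, among them ACTA2 at 11.6 and 8.12 FPKM with shp300, against 0.942 and 1.83 FPKM with shCBP, and LUM and CD4 at about 2 FPKM or less.

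The targeted genes differed between the arms in the direction of their labels. EP300 stood at 3.16 and 3.39 FPKM in shHOXB13+shp300 cells, against 6.17 and 5.19 FPKM in shHOXB13+shCBP cells, a log2 difference of -0.77 (SE 0.15, limma adjusted p = 0.0239). CREBBP stood at 5.69 and 6.66 FPKM with shp300, against 3.33 and 2.96 FPKM with shCBP, a log2 difference of 0.95 (SE 0.16, limma adjusted p = 0.00916). For both genes the arms did not overlap, as for every gene called in this comparison. The EP300 difference did not pass the threshold without shp300 replicate 1 (limma adjusted p = 0.136), shp300 replicate 2 (0.0797) or shCBP replicate 1 (0.159), and the CREBBP difference did not pass without shp300 replicate 2 (0.0715). In shHOXB13 cells with neither hairpin, EP300 was at 5.62 and 5.88 FPKM and CREBBP at 5.15 and 4.72 FPKM. Against those cells EP300 was lower with shp300 (log2 difference -0.79, limma adjusted p = 0.0112). CREBBP did not pass against them, with a log2 difference of -0.64 with shCBP (limma adjusted p = 0.0638) and 0.31 with shp300 (0.263). HOXB13, the homeobox factor depleted in both arms, was at 12.1 and 11.4 FPKM with shp300 and 9.32 and 9.56 FPKM with shCBP. Its log2 difference of 0.31 did not pass (SE 0.17, limma adjusted p = 0.385), although the arms did not overlap.

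Of 17678 genes tested, 321 were higher with shp300 than with shCBP (1.82% of the genes tested) and 122 were lower (0.69%), together 2.51%, at a limma adjusted p under 0.05 and a fold of at least 1.5. Genes higher with shp300 made up 72.5% of the calls, and 57.6% when the libraries were rescaled by the median of gene ratios, which gave 348 higher (1.96%) and 256 lower (1.45%). The median log2 difference over all genes tested was 0.08, with quartiles of -0.15 and 0.35. The arms did not overlap for any of the 321 or 122 called genes, so non-overlap adds no support to a call. Among the calls, 67 genes were at least 4-fold higher with shp300 and 23 at least 4-fold lower on the log2(FPKM + 0.1) scale used throughout. The number of calls depended on how the spread between replicates was estimated. A fit of the 4 libraries alone called 0 genes in either direction, with 1597 higher and 690 lower at an unadjusted p under 0.05, and 358 higher and 133 lower were called by limma-voom on reads recovered from the FPKM. Leaving out shp300 replicate 1 left 88 higher and 73 lower, shp300 replicate 2 132 and 41, shCBP replicate 1 72 and 41, and shCBP replicate 2 333 and 60. At the threshold, LRP11, MIR7-3HG and TRPV6 lay just inside (limma adjusted p just under 0.05), and H2AFY2, PTMS and HLA-B just outside (0.0505, 0.0514 and 0.0520).

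**Figure D1:**
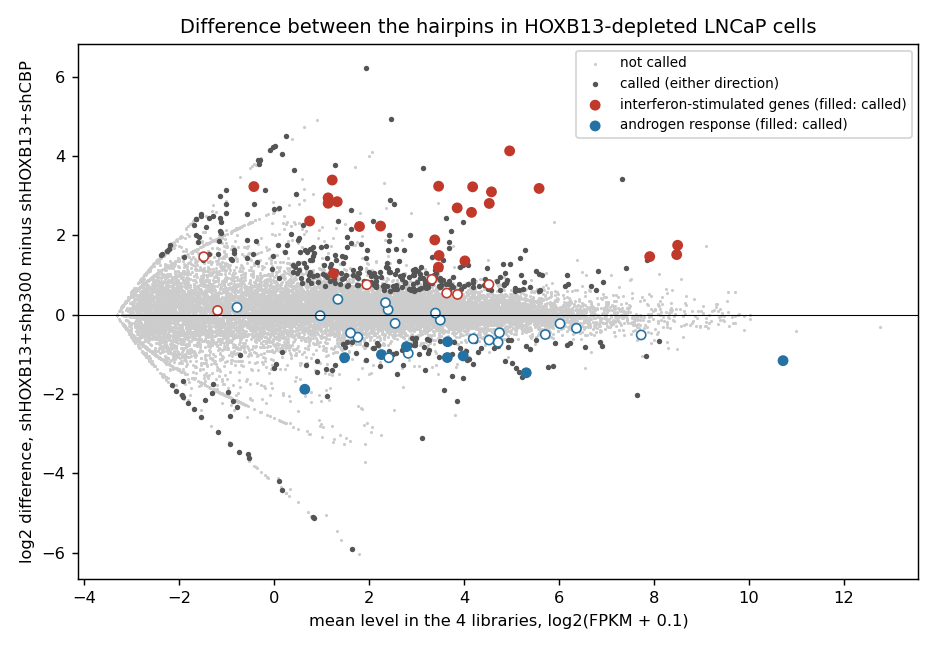
Each point is 1 of the 17678 genes tested. The horizontal axis is the mean level over the 4 libraries as log2(FPKM + 0.1) and the vertical axis is the log2 difference, shHOXB13+shp300 minus shHOXB13+shCBP. Dark points passed the test, red points are the 31 interferon-stimulated genes and blue points the 29 androgen response genes (filled where called). The red points lie above 0 and most blue points below it.

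Antiviral genes formed the group with the most calls. In a list of 31 interferon-stimulated genes, 24 were higher with shp300 than with shCBP and 0 were lower, against 1.82% of all genes tested higher, and the median log2 difference of the list was 2.23, against 0.08 over all genes. The differences of all 31 were above 0. The summed level of the list was 2049 and 1881 FPKM in shHOXB13+shp300 cells, against 529 and 672 FPKM in shHOXB13+shCBP cells. The count remained at 17 to 22 when any 1 of the 4 libraries was left out, and 17 of the 24 genes kept their call in all 4 cases. It fell to 0, like that of all genes, when the 4 libraries were fitted alone, where the median difference was the same 2.23.

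Interferon-stimulated genes carry a short response element near their start, the ISRE, at which IRF9 and other interferon regulatory factors bind. In the 250 bases before the RefSeq start (GRCh38.p14), the letters GAAA, NN and GAAA in a row (N for any base) occurred on either strand in 14 of the 20 called members that matched the promoter table (70.0%), against 3.07% of the 27305 promoters in that table. Of the 12807 tested genes that matched, 2.44% held it. The list was made of genes known to respond to interferon, so its high share was favoured by that choice. No match was found in the windows of RSAD2, IRF9, OAS1, HERC6, CMPK2 and XAF1, which says only that these letters were not in that stretch. Stretches from 6 of the called genes and from the interferon gene IFNL1 are shown because they hold this element in front of genes whose levels are also given. They are written 5′ to 3′ on the gene's strand with the matches (on either strand, some overlapping) in capitals.
ISG15, chr1:1013372-1013411, plus strand: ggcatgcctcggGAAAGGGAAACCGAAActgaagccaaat
IFIT1, chr10:89392495-89392541, plus strand: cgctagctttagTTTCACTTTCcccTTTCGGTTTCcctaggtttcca
IFIT3, chr10:89327829-89327896, plus strand: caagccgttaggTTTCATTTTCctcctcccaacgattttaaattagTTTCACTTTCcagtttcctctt
IFITM3, chr11:320874-320924, minus strand: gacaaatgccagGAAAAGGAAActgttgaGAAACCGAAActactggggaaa
IFI27, chr14:94110616-94110662, plus strand: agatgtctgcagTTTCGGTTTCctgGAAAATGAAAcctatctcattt
BST2, chr19:17405733-17405772, minus strand: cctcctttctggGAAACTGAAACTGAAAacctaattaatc
IFNL1, chr19:39296181-39296220, plus strand: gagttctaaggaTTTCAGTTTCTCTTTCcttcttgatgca

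RSAD2, which encodes viperin, an enzyme that blocks viral RNA synthesis, had the largest difference of the list. It was at 60.7 and 57.0 FPKM with shp300, against 2.94 and 3.61 FPKM with shCBP (log2 difference 4.13, SE 0.44, limma adjusted p = 0.000927). OASL, a member of the oligoadenylate synthetase family that assists RIG-I, was at 93.2 and 79.4 FPKM with shp300, against 8.62 and 10.2 FPKM with shCBP (log2 difference 3.19, SE 0.37, adjusted p = 0.00118). OAS2, which makes the oligoadenylates that activate RNase L, was at 4.37 and 3.96 FPKM, against 0.348 and 0.265 FPKM with shCBP (3.40, SE 0.35, adjusted p = 0.00082). For these 3 genes the lowest shp300 library stood several times above the highest shCBP library, and each kept its call without any 1 library.

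The IFIT proteins bind viral RNA that lacks the host cap modification. IFIT1 was at 45.7 and 39.6 FPKM with shp300, against 3.97 and 5.98 FPKM with shCBP, and IFIT2 at 41.9 and 38.9 FPKM, against 5.10 and 6.33 FPKM. IFIT3, which binds IFIT1, was at 23.5 and 26.5 FPKM with shp300, against 3.92 and 3.63 FPKM with shCBP. The log2 differences of IFIT1, IFIT2 and IFIT3 were 3.10, 2.81 and 2.69 (SE 0.35, 0.33 and 0.40). BST2, or tetherin, holds budding virions at the cell surface and was at 21.6 and 18.1 FPKM, against 1.71 and 2.34 FPKM with shCBP (log2 difference 3.24, SE 0.41, limma adjusted p = 0.00185). IFI44L was at 1.08 and 1.41 FPKM, against 0.0227 and 0.0639 FPKM (log2 difference 3.23, SE 0.33, adjusted p = 0.000808), so that its shCBP level rested on few reads. IFI27, an interferon-induced membrane protein, was at 32.5 and 28.5 FPKM with shp300, against 4.78 and 5.23 FPKM with shCBP (2.58, SE 0.31, adjusted p = 0.00127).

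The most abundant members differed by less on the log2 scale but by the most FPKM. ISG15, a ubiquitin-like modifier, was at 547 and 513 FPKM with shp300, against 167 and 204 FPKM with shCBP. IFI6, an interferon-induced membrane protein, was at 564 and 552 FPKM, against 141 and 194 FPKM, and IFITM3, which blocks virus entry, at 392.1 and 316.5 FPKM, against 111 and 146 FPKM. Their log2 differences were 1.52, 1.75 and 1.47 (SE 0.21, 0.25 and 0.17, limma adjusted p = 0.0031, 0.00413 and 0.00114). IFITM1 was at 30.6 and 34.7 FPKM, against 2.62 and 4.38 FPKM with shCBP (3.23, SE 0.63, adjusted p = 0.0203). The IFITM genes are close copies of each other, so reads that fit more than 1 of them may be missing from the counts and their levels are uncertain. IFITM1 kept its call only without shCBP replicate 2, with adjusted p of 0.145 without shCBP replicate 1, 0.105 without shp300 replicate 1 and 0.103 without shp300 replicate 2.

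Among the factors that drive these genes, IRF9 was at 22.9 and 23.6 FPKM with shp300, against 8.38 and 9.65 FPKM with shCBP (log2 difference 1.36, SE 0.25, limma adjusted p = 0.0139). STAT2 and IRF7 had differences of 0.55 and 0.51 that did not pass (adjusted p = 0.053 and 0.225). The 7 members that were not called were IFITM2, ISG20, MX1, MX2, STAT2, IRF7 and USP18. MX1, a dynamin-like antiviral GTPase, stood out among them with 0.435 and 0.272 FPKM, against 0.403 and 0.240 FPKM with shCBP, levels that overlapped.

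**Figure D2:**
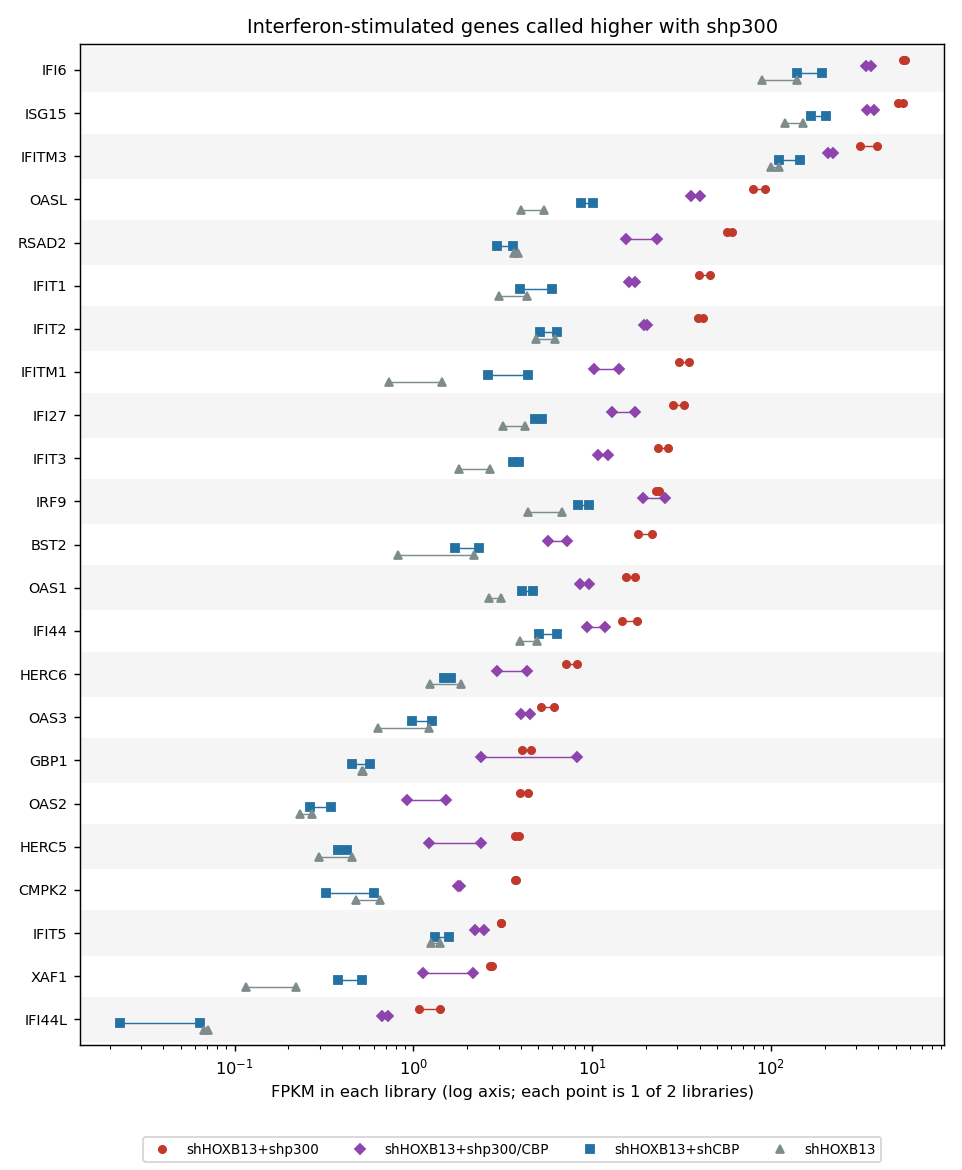
FPKM (log axis) in each library for 23 of the 24 interferon-stimulated genes called higher with shp300, from the most to the least abundant. The genes were chosen by that call, so shp300 above shCBP was set by the choice. Each symbol is 1 library and a line joins the 2 libraries of a group. For each gene shown the shHOXB13+shp300 libraries (red circles) lie above those of shHOXB13+shCBP (blue squares) and shHOXB13 alone (grey triangles). The libraries with both hairpins (shHOXB13+shp300/CBP, purple diamonds) lie below shHOXB13+shp300 except for IRF9 and GBP1.

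The same levels can be set beside the other shHOXB13 groups, with the reminder that those comparisons share libraries. With both hairpins EP300 was at 4.17 and 4.47 FPKM, above its 3.16 and 3.39 FPKM with shp300, and CREBBP at 3.62 and 4.57 FPKM. Neither passed with both hairpins against shHOXB13 alone (log2 differences -0.41 and -0.27, limma adjusted p = 0.0729 and 0.227). The part of these target levels in the order of the groups was not tested. The median of the 24 gene means was 18.1 FPKM with shp300, 10.1 FPKM with both hairpins, 3.64 FPKM with shCBP and 2.56 FPKM with shHOXB13 alone. These 24 were chosen for being called higher with shp300 than with shCBP. That choice set the order of these 2 groups and can favour shp300 against the others. Over all 31 members the median log2 difference from shHOXB13 alone was 2.47 with shp300, 1.64 with both hairpins and 0.20 with shCBP. Against shHOXB13 alone, 26 of the 31 members were higher in shHOXB13+shp300 cells (3.15% of all genes were, and 6.23% were called in either direction), 25 in shHOXB13+shp300/CBP cells (9.06%) and 0 in shHOXB13+shCBP cells (0.385%). The shCBP libraries overlapped the shHOXB13 libraries for 10 of the 24 genes, lay above them for 11 and below them for 3. In shHOXB13 cells with no further hairpin, against shCtrl cells, 13 members were higher and 4 lower, where 34% of all genes were called, 7.15% higher and 26.8% lower. The interferon-stimulated genes were thus highest in the groups that received shp300, and none passed the test between shHOXB13+shCBP and shHOXB13 cells.

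Genes that detect foreign RNA and start the response moved the same way. In a list of 17 RNA sensors, adaptors, interferons and chemokines, 8 were higher with shp300 and 0 were lower (1.82% and 0.69% over all genes), and the median log2 difference was 1.43. DDX58, which encodes the RNA sensor RIG-I, was at 12.7 and 10.2 FPKM with shp300, against 2.48 and 3.09 FPKM with shCBP (log2 difference 2.00, SE 0.20, limma adjusted p = 0.000705). IFIH1, which encodes the sensor MDA5, was at 9.53 and 7.98 FPKM, against 3.24 and 3.45 FPKM (1.36, SE 0.16, adjusted p = 0.00127). The interferon lambda gene IFNL1 was at 5.01 and 5.42 FPKM, or 35 and 42 reads, with shp300, against 0.626 and 0.881 FPKM, or 4 and 6 reads, with shCBP (2.65, SE 0.29, adjusted p = 0.00107). All 3 genes kept their call without any 1 library and their arms did not overlap, but they were the only 3 calls of this list left without either shp300 replicate, and 4 calls were left without shCBP replicate 1.

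Of the other members, IFNL2, a close copy of IFNL3, had 5 and 5 reads with shp300 and was listed at 0 in both shCBP libraries, at least 1.5-fold higher against a floor of 3 reads per library. Its call was kept only without shCBP replicate 2 (limma adjusted p = 0.0611, 0.0633 and 0.0507 without the others). The chemokines CXCL10, CXCL11 and CCL5, which attract lymphocytes, were also called higher. CXCL11 was at 4.51 and 4.35 FPKM, against 0.167 and 0.314 FPKM with shCBP (limma adjusted p of 0.105, 0.0891 and 0.0745 without shCBP replicate 1, shp300 replicate 1 and shp300 replicate 2), and CCL5 at 8.92 and 10.1 FPKM, against 1.07 and 1.34 FPKM. The signalling steps between sensor and interferon did not pass: MAVS was at 10.0 and 11.5 FPKM, against 14.2 and 10.8 FPKM with shCBP, and IRF3 at 30.0 and 27.3 FPKM, against 24.7 and 27.1 FPKM. IFNB1, the gene of interferon beta, was at 0.292 and 0.921 FPKM, against 0 and 0.449 FPKM, and the arms overlapped. PLSCR1, an interferon-induced phospholipid scramblase, was at 0.997 and 1.40 FPKM, against 0.121 and 0.0568 FPKM (log2 difference 2.78, SE 0.46, limma adjusted p = 0.00887, and 0.0687 without shp300 replicate 2).

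The MHC class I pathway, which presents peptides at the cell surface and is itself inducible by interferon, was called for 4 of 17 genes, 3 higher and 1 lower, where 1.82% of all genes were higher and 0.69% lower. The number higher was 9 without the shHOXB13+shp300/CBP group, 10 of 16 with limma-voom, and 1 to 4 with 1 of the 4 libraries left out. HLA-E was at 10.6 and 10.1 FPKM with shp300, against 4.40 and 5.46 FPKM with shCBP (log2 difference 1.06, SE 0.17, limma adjusted p = 0.0072). TAPBP, the tapasin that loads peptides, was at 14.3 and 13.4 FPKM, against 6.87 and 6.82 FPKM, and PSMB9, an immunoproteasome subunit, at 0.629 and 0.633 FPKM, against 0.0800 and 0.0600 FPKM. CANX, the chaperone calnexin, was the member called lower, at 57.4 and 49.5 FPKM, against 84.1 and 98.5 FPKM (-0.77, SE 0.14, adjusted p = 0.0133). B2M and the classical HLA-B and HLA-C genes had differences of 0.90, 1.07 and 0.71 that did not pass. Of these calls, HLA-E did not pass without shCBP replicate 1 or shp300 replicate 1 (adjusted p = 0.0721 and 0.0569), TAPBP without any 1 library (0.0507 to 0.0944) and CANX without shCBP replicate 2 or shp300 replicate 2 (0.0633 and 0.0895).

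On the lower side, androgen-regulated genes made up the group with the most calls. In a list of 29 androgen response genes, 9 had a lower level in shp300 than in shCBP cells and 0 a higher one, against 0.69% of all genes lower, with a median log2 difference of -0.56 for the list. KLK2, a prostate-specific kallikrein protease, was at 24.4 and 18.01 FPKM with shp300, against 55.2 and 60.9 FPKM with shCBP (log2 difference -1.46, SE 0.19, limma adjusted p = 0.00211). KLK3, which encodes prostate-specific antigen, was at 1234 and 882 FPKM, against 2218 and 2437 FPKM (-1.16, SE 0.21, adjusted p = 0.016). TRPM8, a cation channel of prostate epithelium, was at 0.545 and 0.590 FPKM, against 2.6 and 2.12 FPKM (-1.88, SE 0.19, adjusted p = 0.00082). ALDH1A3, which makes retinoic acid, was at 8.25 and 7.66 FPKM, against 15.5 and 18.4 FPKM (-1.08, SE 0.12, adjusted p = 0.00118).

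The arms did not overlap for any of these 4 genes, as for every called gene. With 1 library left out, log2 differences were -1.68 to -1.24 for KLK2, -2.02 to -1.74 for TRPM8 and -1.20 to -0.95 for ALDH1A3. KLK3 did not pass without shp300 replicate 2, shCBP replicate 1 or shCBP replicate 2 (limma adjusted p = 0.0938, 0.0601 and 0.0525). The count of 9 was 3 without shp300 replicate 2, 3 without shCBP replicate 1, 3 without shCBP replicate 2 and 9 without shp300 replicate 1, and 13 with median-of-ratios scaling. The other members called lower were FKBP5, ELL2, C1orf116, NCAPD3 and PLA2G2A, with differences between -0.68 and -1.08. TMPRSS2, STEAP1, STEAP2, KLK4 and SLC45A3 lay between -0.51 and -0.13 and did not pass.

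Androgen response elements are pairs of AGAACA-like sites. The single letters AGAACA occurred in the 250 bases before the start of 1 of the 8 called members matched to the promoter table (12.5%), against 12.4% of all promoters in the table. Among the 12807 tested genes that matched, the share was 8.27%, and 8 members are too few to compare shares. The member with the match was KLK3, whose proximal promoter holds a well-studied androgen response element, and the stretch is shown for that reason with these letters in capitals.
KLK3, chr19:50854725-50854770, plus strand: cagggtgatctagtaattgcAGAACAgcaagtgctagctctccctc

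FOXA1, a pioneer factor of prostate epithelium, was at 112 and 86.8 FPKM with shp300, against 77.8 and 82.8 FPKM with shCBP, with no call. Among 13 luminal prostate markers, 1 was called, where 2.51% of all genes were. Their median log2 difference was -0.09, with 6 above 0 and 7 below. AGR2, a disulfide isomerase of the secretory pathway, was at 85.6 and 73.2 FPKM with shp300, against 281 and 366 FPKM with shCBP (log2 difference -2.02, SE 0.17, limma adjusted p = 0.000291), and kept its call without any 1 library.

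Genes of steroid glucuronidation, which inactivates androgens, were lower for 3 of the 9 tested (0.69% of all genes were), with a median log2 difference of -0.96. UGT2B28 was at 37.3 and 25.8 FPKM, against 66.3 and 90.2 FPKM with shCBP, and UGT2B11 at 170 and 128 FPKM, against 263 and 350 FPKM. UGT1A1 was at 1.14 and 1.03 FPKM, against 2.56 and 3.41 FPKM. The UGT2B genes are near copies of each other and the UGT1A genes share exons, so reads that fit more than 1 of them may be missing from the counts and their levels are uncertain. These calls were not stable: leaving out either shp300 replicate or either shCBP replicate left 0 or 1 of the 3. In shCtrl cells 3 of the 9 were higher with shp300 and 2 lower, where 6.71% and 4.42% of all genes were, with a median of 0.69. The interaction was lower in shHOXB13 cells for 2 (0.492% of all genes). In those shCtrl libraries UGT2B28 was at 1.13 to 1.71 FPKM and UGT2B11 at 4.17 to 11.3 FPKM.

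Other genes among the 15 largest lower differences belonged to none of these lists. ST6GALNAC1, a sialyltransferase that makes the sialyl-Tn antigen, was at 6.86 and 3.79 FPKM with shp300, against 23.6 and 23.4 FPKM with shCBP (log2 difference -2.18, SE 0.29, limma adjusted p = 0.00262). CCND1, which encodes cyclin D1, was at 20.5 and 17.2 FPKM, against 52.98 and 58.1 FPKM (-1.56, SE 0.18, adjusted p = 0.00121). FAM134B, an endoplasmic reticulum autophagy receptor, was at 6.61 and 6.83 FPKM, against 19.0 and 20.8 FPKM (-1.55, SE 0.23, adjusted p = 0.00422). All 3 kept their call without any 1 library. NNMT, PIP, TARP, CHRNA2, PART1, FAM107B and GHR were also among the 15 largest, with differences between -2.06 and -1.40, and each lost its call without at least 1 library. For these 7 the adjusted p without 1 library ranged up to 0.218, for NNMT without shCBP replicate 1. RNVU1-15 and GBAT2 were listed at 0 in both shp300 libraries, but the shCBP libraries held only 2 and 1 reads of RNVU1-15 and 2 and 6 reads of GBAT2.

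Other cell cycle genes did not pass. Of 29 DNA replication genes and 30 mitosis genes, 0 were called by limma in either direction, with medians of 0.01 and 0.03. At an unadjusted p under 0.05, 6 replication genes were higher and 2 lower, and 0 mitosis genes were higher and 2 lower, and limma-voom called 0 in both lists. ZMAT3 and FAS, both p53 targets, were called in opposite directions, ZMAT3 lower and FAS higher. ZMAT3 lost its call without each of the 4 libraries (limma adjusted p = 0.0792 to 0.172), and FAS kept it only without shCBP replicate 2 (0.126 to 0.233 without the others).

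**Figure D3:**
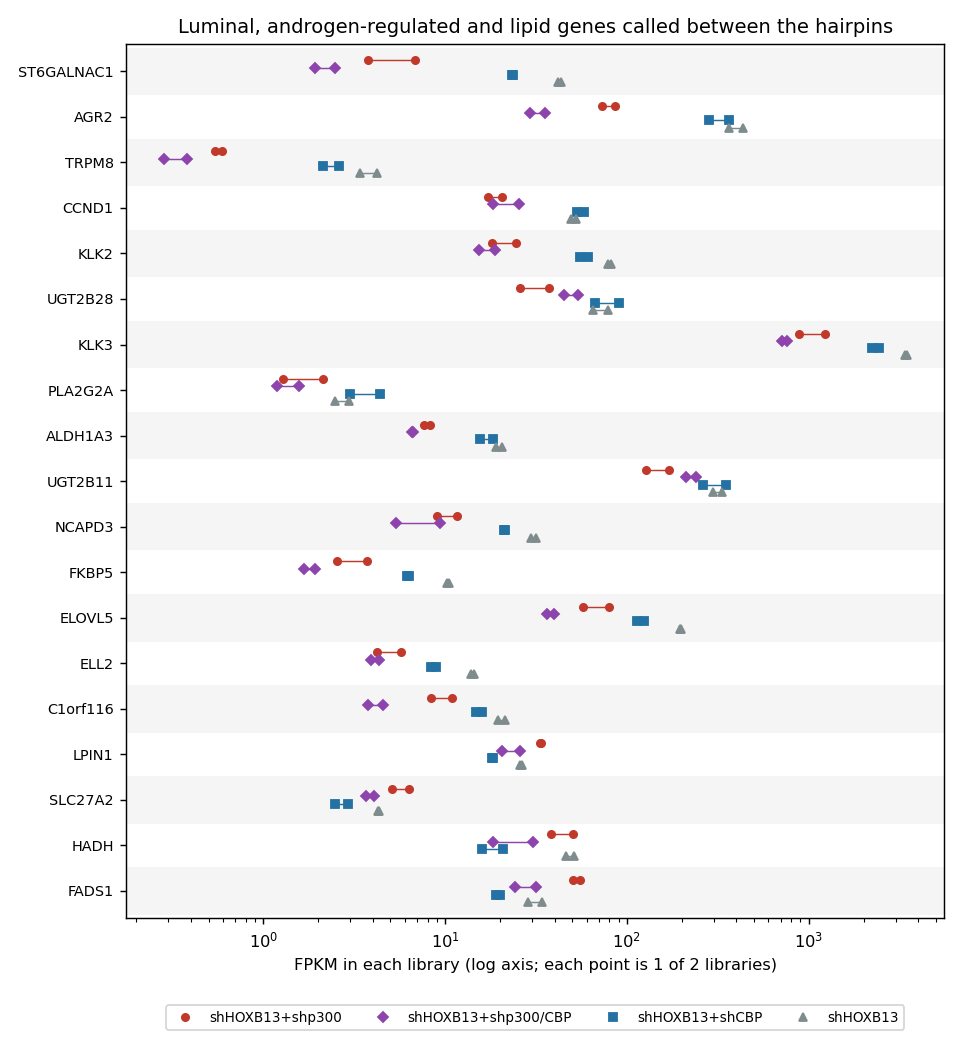
FPKM (log axis) in each library for luminal, androgen-regulated and lipid genes called between the hairpins, ordered by the log2 difference of shHOXB13+shp300 minus shHOXB13+shCBP from the lowest to the highest. Each symbol is 1 library and a line joins the 2 libraries of a group. In the upper rows the shHOXB13+shp300 libraries (red circles) lie below those of shHOXB13+shCBP (blue squares), and in the last 4 rows (LPIN1, SLC27A2, HADH, FADS1) above them.

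Lipid genes are the subject of the study. FASN, the fatty acid synthase, was at 736 and 665 FPKM with shp300, against 573 and 579 FPKM with shCBP. Its log2 difference of 0.28 did not pass (SE 0.12, limma adjusted p = 0.268), although the arms did not overlap. In shHOXB13 cells with neither hairpin FASN was at 864 and 832 FPKM. Against those cells it did not pass, at -0.28 with shp300 (limma adjusted p = 0.215) and -0.56 with shCBP (0.0503). The study, from browser tracks and protein blots, reported a weaker reduction by CBP than by p300 knockdown. Of 26 fatty acid synthesis genes 1 was higher and 1 lower, of 21 cholesterol synthesis genes 1 was higher, and of the 43 tested genes that the study grouped under fatty-acyl-CoA synthesis 1 was higher and 1 lower, where 2.51% of all genes were called. With median-of-ratios scaling the cholesterol list had 0 higher and 2 lower. The medians of these lists were 0.26, 0.35 and 0.12. At an unadjusted p under 0.05, 9 fatty acid synthesis genes were higher and 2 lower, and 8 cholesterol genes higher and 2 lower. Of the study's genes 7 were higher and 2 lower, against 2201 and 911 of all 17678 genes. Limma-voom called 4 higher and 1 lower, 2 and 1, and 3 and 2 in the same order, where 2.08% and 0.772% of all genes were called. FADS1, a desaturase of polyunsaturated fatty acids, was at 54.9 and 50.7 FPKM, against 19.1 and 20.04 FPKM with shCBP (1.43, SE 0.16, adjusted p = 0.00109). LPIN1, a phosphatidate phosphatase of triglyceride synthesis, was at 33.5 and 33.3 FPKM, against 18.2 and 18.4 FPKM (0.86, SE 0.12, adjusted p = 0.00356). Both kept their call without any 1 library.

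HADH, a dehydrogenase of fatty acid oxidation, was at 50.5 and 38.2 FPKM with shp300, against 15.9 and 20.7 FPKM with shCBP (log2 difference 1.27, SE 0.23, limma adjusted p = 0.0137). Its level in shHOXB13 cells with neither hairpin was 51.3 and 46.1 FPKM, so the shp300 libraries lay near that level and the shCBP libraries below it. The call was lost without shp300 replicate 1 or shCBP replicate 1 (0.118 and 0.117). SLC27A2, a fatty acid transporter and very long chain acyl-CoA synthetase, was at 6.35 and 5.09 FPKM, against 2.92 and 2.47 FPKM (1.06, SE 0.16, adjusted p = 0.0054, and 0.0559 without shp300 replicate 1). ELOVL5, a fatty acid elongase that androgen induces, went the other way, at 79.9 and 57.5 FPKM, against 114 and 123 FPKM (-0.80, SE 0.16, adjusted p = 0.0243). ELOVL5 passed only without shp300 replicate 1, and SC5D, the cholesterol gene called higher, only without shCBP replicate 2 and not with median-of-ratios scaling.

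The metastasis genes that the study examined did not pass. MMP10 was at 34.9 and 23.6 FPKM with shp300, against 25.7 and 33.6 FPKM with shCBP, and MMP13 at 58.0 and 40.4 FPKM, against 38.4 and 51.7 FPKM, levels that overlapped. MMP12 was at 38.2 and 29.5 FPKM, against 48.7 and 63.8 FPKM (log2 difference -0.73, SE 0.45, limma adjusted p = 0.453). MMP7, SNAI1, SNAI2, ZEB1, CDH1 and VIM did not pass either. Of 18 matrix metalloproteinases and 13 regulators of epithelial to mesenchymal transition and cadherins, 0 were called by limma or limma-voom, with 2 higher and 1 lower, and 3 higher and 1 lower, at an unadjusted p under 0.05.

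Among the largest higher differences outside these lists, KRT75, a hair follicle keratin, was at 10.7 and 10.4 FPKM with shp300, against 0.252 and 0.236 FPKM with shCBP (log2 difference 4.95, SE 0.88, limma adjusted p = 0.0133). Its call was lost without each of the 4 libraries in turn (0.0522 to 0.0891), and its replicates in shHOXB13+shp300/CBP cells lay at 2.41 and 0.0576 FPKM. DIO3, which inactivates thyroid hormone, was at 298 and 288 FPKM, against 21.9 and 34.1 FPKM (3.42, SE 0.54, adjusted p = 0.00784), and passed only without shCBP replicate 2. ANGPT2, an angiopoietin ligand, was at 16.7 and 15.7 FPKM, against 1.14 and 1.17 FPKM (3.70, SE 0.42, adjusted p = 0.00113). IGFBP6, which binds insulin-like growth factors, had 12 and 11 reads with shp300 and was at 0 in both shCBP libraries, at least 3.45-fold higher against a floor of 3 reads per library. HRASLS2, a phospholipid acyltransferase, had 10 and 8 reads and was likewise at 0, at least 2.71-fold higher.

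A few genes known as markers of other cells were among the calls. LUM, a collagen-binding proteoglycan of fibroblasts, was at 2.03 and 1.99 FPKM with shp300, against 0 and 0.0594 FPKM with shCBP, and ACTA2, smooth muscle actin, at 11.6 and 8.12 FPKM, against 0.942 and 1.83 FPKM. The summed level of 15 fibroblast and smooth muscle markers was 26.1 and 23.2 FPKM, against 11.6 and 14.6 FPKM, with 2 of the 8 tested called, while COL1A2, DCN, PDGFRA, POSTN and DES were listed at 0 in all 4 libraries. CD4, a T cell and macrophage receptor, was at 1.84 and 1.66 FPKM, against 0.155 and 0.218 FPKM. The summed level of 14 immune and endothelial markers was 23.0 and 23.2 FPKM, against 11.7 and 14.04 FPKM, most of it CD68, with 1 of the 6 tested called and PTPRC, CD3E, FCGR3A and CDH5 among those at 0 in all 4 libraries. For the 12 basal markers the sum was 7.31 and 6.07 FPKM, against 3.09 and 4.15 FPKM, with KRT6A called of 9 tested. Their median log2 difference was 0.93, with 8 of the 9 above 0. At an unadjusted p under 0.05, 6 were higher and 0 lower, against 2201 and 911 of all 17678 genes. Limma-voom called 3 of them higher (2.08% of all genes). For the 18 neuroendocrine markers the sum was 19.7 and 15.9 FPKM, against 13.4 and 14.6 FPKM, with 0 of 8 called. Beside these counts, limma called 1.82% of all genes higher and 0.69% lower. The part of these markers in the other differences was not tested. In bulk RNA, fewer cells of a type and less RNA per cell cannot be told apart.

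**Figure D4:**
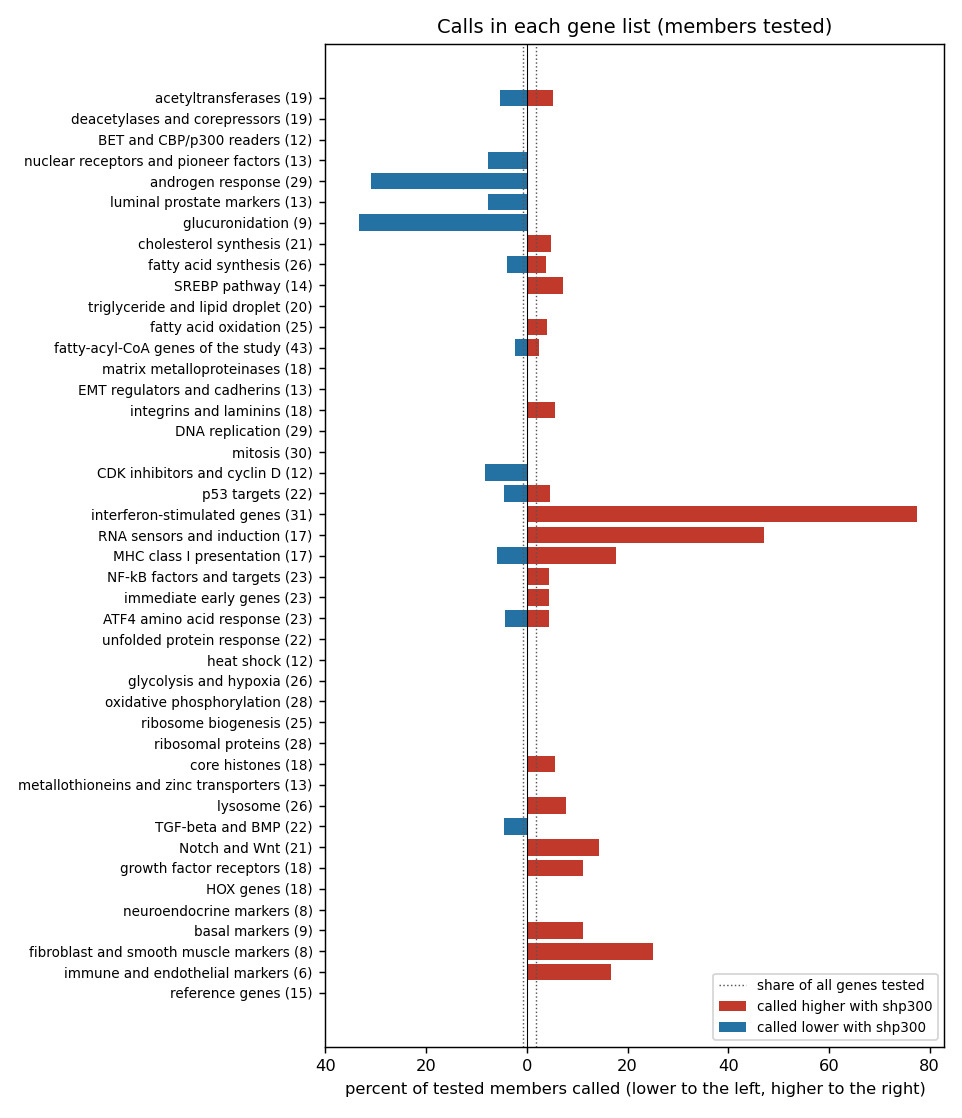
For each of 44 gene lists, bars give the percent of tested members called higher (red, to the right) and lower (blue, to the left) with shHOXB13+shp300 than with shHOXB13+shCBP, with the number tested in brackets. Dotted lines mark the shares over all genes tested, 1.82% higher and 0.69% lower. The interferon-stimulated and RNA sensor lists extend farthest to the right, and the androgen response and glucuronidation lists farthest to the left.

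The same hairpins were compared in cells with the control vector, where no library is shared with the comparison above. In shCtrl cells 1187 genes were higher with shp300 than with shCBP (6.71%) and 782 were lower (4.42%). The targets there had log2 differences of -1.22 (EP300) and 1.45 (CREBBP), against -0.77 and 0.95 in shHOXB13 cells. Their interactions did not pass. HOXB13 was at 69.7 and 77.1 FPKM with shCtrl+shp300, against 43.2 and 51.5 FPKM with shCtrl+shCBP (0.64, limma adjusted p = 0.0286). Mapped reads in the shCtrl libraries compared numbered 10097424 to 13382729. The part of these in the numbers of calls was not tested. Across the 17678 genes the differences in shHOXB13 and shCtrl cells had a Pearson correlation of 0.19 and a Spearman correlation of 0.25. Among the 11603 genes that reached 1 FPKM in either shHOXB13 arm these were 0.26 and 0.34. They are given as a description, since genes are not independent replicates. Of the 321 genes higher in shHOXB13 cells, 247 lay above 0 and 74 below 0 in shCtrl cells. Among the 321, 117 were also called higher in shCtrl cells and 10 were called lower there. Of the 122 lower genes, 93 lay below 0 and 29 above 0 in shCtrl cells, with 42 called lower there and 4 higher. CCND1 was nearly the same in both, with a log2 difference of -1.56 in shHOXB13 cells and -1.56 in shCtrl cells, and AGR2 was lower in both.

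The difference between the hairpins itself differed between shHOXB13 and shCtrl cells for 288 genes, 1.63% of the genes tested, being higher in shHOXB13 cells for 201 (1.14%) and lower for 87 (0.492%). The interferon-stimulated list held 14 of the 201 among its 31 members and 0 of the 87. In shCtrl cells 4 of its members were higher with shp300 and 1 was lower, with a median log2 difference of 0.22, and the median of the 24 gene means was 1.10 FPKM with shCtrl+shp300 and 0.590 FPKM with shCtrl+shCBP. RSAD2 was at 1.85 and 0.536 FPKM with shCtrl+shp300, against 0.586 and 0.511 FPKM with shCtrl+shCBP. IFNL1 was listed at 0 in all 4 of those libraries. HERC6 and GBP1 were members with a similar difference in both backgrounds, with interactions of 0.35 and 0.50 that did not pass.

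Of the 29 androgen response genes, 8 were lower and 2 higher with shp300 in shCtrl cells, where 4.42% and 6.71% of all genes were. Against shHOXB13 alone, in comparisons that share libraries, 17 were lower with shp300 (3.09% of all genes), 2 with shCBP (1.08%) and 22 with both hairpins (13.3%). In each of these 0 were higher. The interaction was called for 1 of the 29, lower in shHOXB13 cells, as for 0.492% of all genes. NCAPD3 was at 11.6 and 9.03 FPKM with shHOXB13+shp300, against 21.3 and 20.96 FPKM with shHOXB13+shCBP, whereas in shCtrl cells it was at 13.1 and 12.4 FPKM with shp300, against 6.16 and 8.16 FPKM with shCBP. KLK2 was lower with shp300 in shCtrl cells as well, at 22.6 and 24.4 FPKM, against 34.5 and 52.7 FPKM (log2 difference -0.86, limma adjusted p = 0.0127). The lysosome list held 2 genes higher in shHOXB13 cells (LAMP1 and NPC2) and 13 of 26 lower in shCtrl cells, and its interaction was higher for 6, where 1.82%, 4.42% and 1.14% of all genes were so called. With median-of-ratios scaling 0 of the list were higher in shHOXB13 cells. LAMP1 kept its call only without shp300 replicate 2 (limma adjusted p = 0.063 to 0.233 without the others), and NPC2 only without shCBP replicate 2 (0.11 to 0.238).

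**Figure D5:**
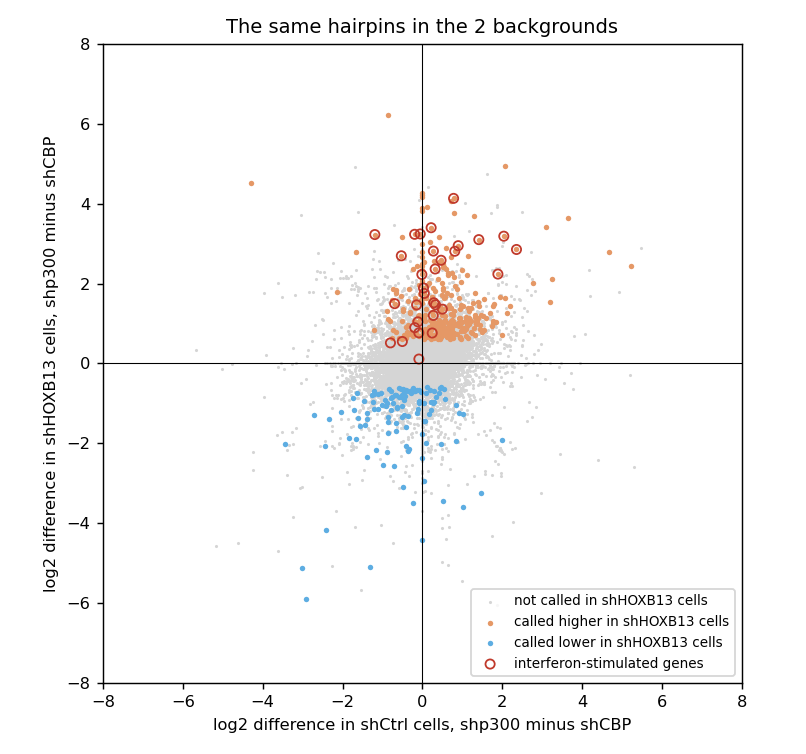
Each point is 1 gene. The horizontal axis is the log2 difference of shp300 minus shCBP in shCtrl cells and the vertical axis is the same difference in shHOXB13 cells, from separate libraries. Orange and light blue mark the 321 genes called higher and the 122 called lower in shHOXB13 cells, and red rings the 31 interferon-stimulated genes, all of which lie above 0 on the vertical axis and on either side of 0 on the horizontal one.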

How the data were processed

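RNA-seq libraries were made from polyA RNA of LNCaP cultures. Per the labels and the study's methods, the authors aligned reads to GRCh38 with STAR 2.6.0, counted reads per gene and deposited FPKM, here for 26475 gene symbols. The counts were not used here. Read numbers were recovered from the FPKM, since 99.97% of the 270262 values checked were within 0.05 of a whole read, and gave the depth. The authors' script took the column of STAR's gene counts that ignores strand, which holds uniquely mapped reads, so reads of near-identical genes can be missing and overlapping antisense genes cannot be told apart. Samples were grouped by their treatment label. The authors used DESeq2 on counts. Here limma 3.58.1 in R 4.3.3 was fitted, with a mean-variance trend, to log2(FPKM + 0.1) of genes at 0.1 FPKM or more in at least 2 of the 16 knockdown libraries, with 8 group means and Benjamini-Hochberg adjustment. A call needed an adjusted p below 0.05 together with a fold of 1.5 or more. A fold on this scale understates the change of low genes. The authors' duplicates have no label for batch or culture, so p-values measure the spread between these libraries. Named genes were the targeted genes, those the study names, the 15 largest calls in each direction (1 FPKM or more in one arm, no overlap, no LOC, MIR, SNOR, RNU or LINC names), up to 4 calls per list and the 6 largest interactions. Others were chosen after their values were seen. The members and the 44 gene lists were chosen with earlier results of these data known. Lists were described by counts and medians. Promoters came from RefSeq (GRCh38.p14). Of the genes tested 12807 matched, too few for a comparison of base composition. Alternatives were other pseudocounts, filters, scalings and groups of libraries, limma-voom, a replicate block, and each library left out. Some genes that met these rules are not reported here, and counts over lists include them.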

Additional observations from a re-analysis of the deposited data

Results flagged for a closer look

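For 28 of the named genes the shp300 minus shCBP difference differed between shHOXB13 and shCtrl cells by the interaction term of the limma fit, given here on the log2 scale as the difference in shHOXB13 cells minus that in shCtrl cells. Antiviral genes with a higher difference in shHOXB13 cells were RSAD2 (3.35), OAS2 (3.18), BST2 (3.30), IFI44L (3.43), IFITM1 (4.42), PLSCR1 (4.44), DDX58 (1.84), IFIH1 (1.85), IFNL1 (2.65), IFNL2 (3.66) and HLA-E (1.88), with limma adjusted p between 0.00481 and 0.0333. IFNL1 was at 0 in all shCtrl libraries of the comparison, so its value is set by shHOXB13 cells alone and by the pseudocount.

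Other genes with a higher difference in shHOXB13 cells were AGR2 (1.42), LUM (3.36), HRASLS2 (3.80), IGFBP6 (3.89), FADS1 (1.00), SLC27A2 (1.58), CSF1 (2.33), LAMP1 (1.06), NPC2 (1.22), KRT6A (2.49), HRCT1 (4.62) and RGS2 (4.21). AGR2 was lower with shp300 in both backgrounds, by more in shCtrl cells, where it was at 11.3 and 8.46 FPKM with shp300, against 107 and 107 FPKM with shCBP. RGS2, a regulator of G protein signalling, was at 2.54 and 3.19 FPKM, against 0.199 and 1.40 FPKM with shCBP in shHOXB13 cells, and at 0.960 and 0.954 FPKM, against 3.84 and 4.87 FPKM in shCtrl cells. HRASLS2, IGFBP6, KRT6A and HRCT1 each had under 15 reads in every library of the shHOXB13 comparison, and their fitted values depend on the pseudocount.

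Genes with a lower difference in shHOXB13 cells were MMP10 (-2.61), RNVU1-15 (-4.63), GBAT2 (-3.28), FAM107B (-1.50) and C11orf94 (-4.39). MMP10, a stromelysin that the study examined, was at 34.9 and 23.6 FPKM with shHOXB13+shp300, against 25.7 and 33.6 FPKM with shHOXB13+shCBP, and at 6.90 and 3.94 FPKM with shCtrl+shp300, against 0.814 and 0.765 FPKM with shCtrl+shCBP. RNVU1-15, GBAT2 and C11orf94 rested on 6 or fewer reads in each of the 4 shHOXB13 libraries.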

How the results depend on the processing

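No named gene changed sign with its call under any setting run. The 321 genes higher and 122 lower became 256 lower with median-of-ratios scaling, 615 higher and 209 lower without the shHOXB13+shp300/CBP group, and 0 and 0 with only the groups compared, where the degrees of freedom were 3.10 instead of 11.8. Each library left out in turn gave 72 to 333 higher and 41 to 73 lower, with the lone library of an arm assumed to vary like the other groups. Of the 73 named genes called, 28 kept their call in all 4 cases. The 201 interactions higher and 87 lower became 366 and 179 with median-of-ratios scaling, 481 and 141 with equal totals, 356 and 157 without the shHOXB13+shp300/CBP group, 12 and 5 with only the groups compared, 320 higher with limma-voom, and 34 to 297 higher and 16 to 68 lower with 1 library left out. EP300 lost its call with equal totals (-0.79, limma adjusted p = 0.0554), and with only the groups compared (-0.77, 0.261), and CREBBP with only the groups compared (0.95, 0.229). With 1 library left out EP300 lay between -0.89 and -0.65 and passed only at -0.89, and CREBBP lay between 0.84 and 1.06 and did not pass only at 0.84. Replicate numbers did not pair the libraries: deviations of the same number in both arms had a correlation of -0.04. A replicate block gave 258 higher and 90 lower, and 124 and 55 for the interaction. Depth was 7458934 to 9046906 mapped reads in the 4 libraries, so that genes with few reads carry the least certain values.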
